A study of Mus musculus with 48 samples.

Results

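The enzymes described here control the entry of glucose into glycolysis and its way back out through gluconeogenesis. They are the products of 9 genes, given by symbol: Pck1, G6pc, Fbp1 and Pcx of gluconeogenesis, the pyruvate kinases Pklr and Pkm, and the hexokinases Hk1, Hk2 and Hk3. All 9 were found among the 15541 genes listed in at least 1 of 6 tissue tables, each under 1 Ensembl identifier. The liver table listed all 9. The tables of the duodenum, jejunum and ileum listed 8 each, without Hk3. The table of subcutaneous white adipose tissue (WAT) listed 6, without G6pc, Fbp1 and Pklr, and the muscle table listed 5, without those and Hk3. The listed genes all reached 1 CPM in a minimum number of libraries, that of the tissue's smaller group, and a gene that is not listed is not a value of 0.

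The mice were male C57Bl6 animals made obese by a high fat diet. They underwent Roux-en-Y gastric bypass (RYGB), a rerouting of the gut that connects the upper end of the stomach directly with the jejunum and takes most of the stomach, and all of the duodenum, out of the path of food, or a sham operation. Both groups then received an elemental liquid diet and were killed 9 days after surgery, after an overnight fast. There were 4 RYGB and 4 sham libraries of liver, of WAT and of gastrocnemius muscle. Scraped villi gave 3 RYGB and 4 sham libraries of duodenum, the same numbers of jejunum, and 5 of each group of ileum. The RYGB and sham groups shared strain, sex, diet and fasting. The labels gave neither ages nor a weight-matched sham group for day 9, and they did not say which libraries of different tissues came from the same mouse. Levels are in CPM, the count of a gene relative to the total count of its library.

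Glycolysis and gluconeogenesis share most of their enzymes, which work in both directions, and differ at a few steps that are practically irreversible. On the way down, a hexokinase traps glucose in the cell as glucose 6-phosphate, and a pyruvate kinase makes pyruvate at the end. On the way up, these steps are bypassed: pyruvate carboxylase (Pcx) makes oxaloacetate, phosphoenolpyruvate carboxykinase (Pck1) turns it into phosphoenolpyruvate, fructose-1,6-bisphosphatase (Fbp1) removes a phosphate further up, and glucose-6-phosphatase (G6pc) releases free glucose. Liver is the main organ of gluconeogenesis in fasting, kidney and small intestine hold the same enzymes, and fat uses Pck1 and Pcx to make glycerol phosphate and to feed lipid synthesis.

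The genes lie apart in the genome (GRCm38, positions from GENCODE M21). Pck1 (ENSMUSG00000027513) is at chr2:173153048-173159273, G6pc (ENSMUSG00000078650) at chr11:101367561-101377903, Pkm (ENSMUSG00000032294) at chr9:59656368-59679375, Pklr (ENSMUSG00000041237) at chr3:89136142-89146784 and Pcx (ENSMUSG00000024892) at chr19:4510472-4621752, all on the plus strand. Fbp1 (ENSMUSG00000069805, chr13:62864753-62888282), Hk1 (ENSMUSG00000037012, chr10:62268855-62379908), Hk2 (ENSMUSG00000000628, chr6:82725025-82774454) and Hk3 (ENSMUSG00000025877, chr13:55005985-55021385) are on the minus strand. The merged exons of a gene in GENCODE M21 measured between 1702 bases for Fbp1 and 8532 for Hk1. Levels of different genes were compared only per kilobase (kb) of those exons. The annotation used for counting is not given, so the exons that were counted may differ from these.

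The promoters of Pck1 and Hk2 are shown because these genes had the largest changes of the set, in opposite directions in the same tissue. Each sequence is the 250 bases just before the RefSeq start (GRCm38.p6), 5′ to 3′ on the gene's strand, from chr2:173152823-173153072 for Pck1 and chr6:82774455-82774704 for Hk2. Capitals mark ACGTCA, the half-site of the cAMP response element, and CACGT, the reverse complement of the hypoxia response core ACGTG.
Pck1: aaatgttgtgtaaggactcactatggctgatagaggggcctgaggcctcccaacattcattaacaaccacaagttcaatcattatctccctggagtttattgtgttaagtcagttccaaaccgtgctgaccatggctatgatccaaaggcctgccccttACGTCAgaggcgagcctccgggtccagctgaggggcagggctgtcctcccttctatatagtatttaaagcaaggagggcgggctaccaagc
Hk2: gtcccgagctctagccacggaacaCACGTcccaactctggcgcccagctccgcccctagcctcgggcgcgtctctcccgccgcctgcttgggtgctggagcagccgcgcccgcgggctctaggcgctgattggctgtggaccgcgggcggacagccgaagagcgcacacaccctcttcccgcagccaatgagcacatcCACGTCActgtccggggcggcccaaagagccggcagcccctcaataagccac
Pck1 held ACGTCA 91 to 86 bases before its start, and Hk2 held it 51 to 46 bases before its start, overlapping a CACGT at 52 to 48. Hk2 held a further CACGT at 226 to 222. Both motifs were searched on both strands. Of all 32851 RefSeq windows of this length, 6.47% held the half-site and 16.6% held the hypoxia core. All 9 genes matched a RefSeq entry, with 13 windows in all. Pck1 and Hk2 were the members with the half-site. The hypoxia core was also found in windows of Pkm, Hk3 and Pcx.

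The question in each tissue was which of these genes differed between RYGB and sham mice. The comparison was made on log2(CPM + 1), a scale that understates the change of low genes. A gene was called changed at an adjusted p under 0.05 with a fold change of at least 1.5. Of 44 gene and tissue pairs, 9 were called, 5 higher and 4 lower after RYGB. In the jejunum 4 of 8 members were called, 2 higher and 2 lower, where 9.75% of all tested genes were called (4.62% higher and 5.13% lower). In the liver 2 of 9 were called, both higher, against 7.08% of all genes (5.79% higher and 1.29% lower). In the ileum 2 of 8 were called, 1 in each direction, against 6.05% of all genes (1.64% higher and 4.42% lower). In WAT 1 of 6 was called, lower, in a tissue in which 24.1% of all genes were (14.9% higher and 9.23% lower). A single call among 6 genes does not set the members apart from all genes there. Neither muscle (0 of 5) nor duodenum (0 of 8) had a called member in limma's test, although 1 and 4 members had an unadjusted p under 0.05. In those tissues 0% and 0.00922% of all genes were called. Over all genes, 1746 of 11966 in muscle and 2040 of 10850 in duodenum had an unadjusted p under 0.05 in the same test. The liver had the highest median log2 fold change of the members, 0.69, against 0.13 for all tested genes. In the jejunum the medians were 0.25 and -0.04. The medians of the members were closer to those of all genes in WAT (0.17 and 0.11), muscle (0.16 and 0.05), duodenum (0.10 and 0.12) and ileum (-0.01 and -0.09). Rescaling each library by its median ratio brought the liver, WAT and duodenum medians of all genes to between -0.011 and 0.004.

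**Figure D1:**
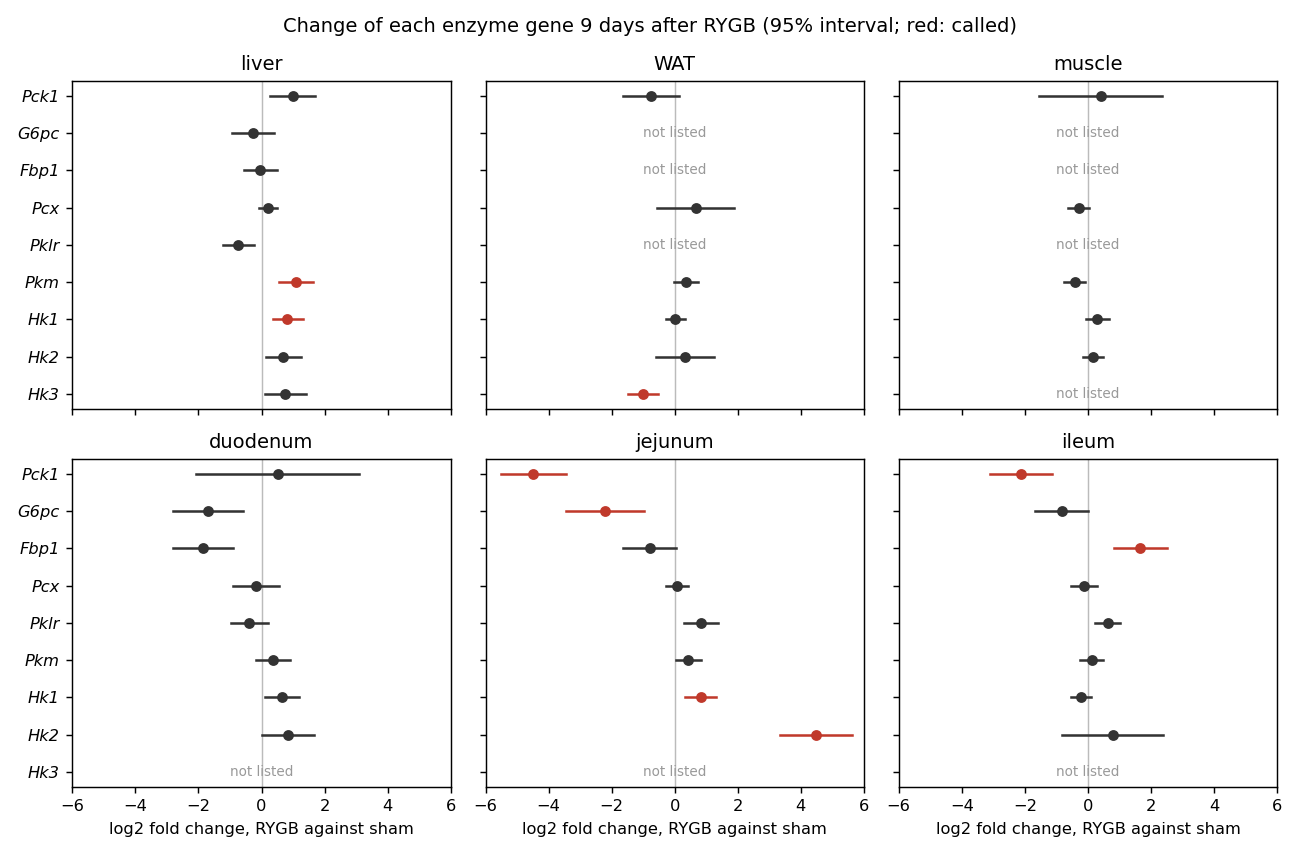
Log2 fold change of each of the 9 genes, RYGB against sham, in each tissue (x axis, log2 of CPM + 1), with its 95% interval, and red for the 9 called pairs. The 2 pairs farthest from 0 are Pck1 at -4.48 and Hk2 at 4.47, both in the jejunum.

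Each tissue carried its own defining markers. All 7 hepatocyte markers were listed in liver, all 6 adipocyte markers in WAT, all 6 fibre markers in muscle and all 7 enterocyte markers in each gut segment. Among the duodenal libraries, sham replicate 4 stood apart: 1 gene was called with it and 757 without it. In muscle 0 genes were called with all libraries, 210 without RYGB replicate 4 and 57 without sham replicate 3, and 0 members in each case. The sequencing lane in the labels was the same for all duodenal libraries. In the ileum no lane held libraries of both groups, and the effect of surgery cannot be told apart from that of lane. In the jejunum only RYGB replicate 2 was on another lane, so a lane term takes that library out of the estimate. In muscle, lane 3 held only sham libraries and lane 4 only RYGB libraries. In WAT, lane 1 held only RYGB and lane 4 only sham libraries. Because the tissues are bulk samples, fewer cells of a type and less RNA per cell cannot be told apart.

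In sham mice, the tissues differed in which enzymes they carried. Pck1 was highest in WAT (median 1843 CPM) and liver (1009 CPM), whose ranges overlapped, followed by ileum (302.3 CPM), jejunum (173.8 CPM) and duodenum (37.40 CPM), with muscle lowest at 4.000 CPM and 1 library at 54.4 CPM. The ranges of liver and ileum did not overlap, while the gut segments overlapped from one to the next. G6pc, the last step before free glucose leaves the cell, was highest in liver with a median of 456.6 CPM, and its liver range lay above that of the jejunum, next at 294.9 CPM. Fbp1 had the same leading tissue, with 1151 CPM in liver against 148.3 CPM in jejunum. Pcx was highest in liver (534.6 CPM) and WAT (460.9 CPM), which overlapped. The tables were normalized separately for each tissue, so these orders are descriptions without a test.

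Pyruvate kinase and hexokinase genes followed another order in sham mice. Pkm was highest in muscle, with a median of 1986 CPM and a range apart from the 626.9 CPM of the duodenum. Pklr, the form of liver and red cells, was higher in all gut segments than in liver by its median (678.3 CPM in duodenum, 598.2 CPM in jejunum, 534.0 CPM in ileum and 309.8 CPM in liver), but each range overlapped the next. Hk2, the insulin-responsive hexokinase of muscle and fat, was highest in muscle at 300.1 CPM and second in WAT at 78.15 CPM. Hk1, the hexokinase of most cells, was highest in WAT at 82.50 CPM. Hk3, a hexokinase known from myeloid cells, was listed only in WAT (42.60 CPM) and liver (8.450 CPM).

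Pck1, which sets the pace of gluconeogenesis from pyruvate and amino acids, fell in the villi of the jejunum and of the ileum after RYGB. In the jejunum its level was 10.0, 8.8 and 2.3 CPM in the 3 RYGB libraries and 208.1, 82.8, 251.5 and 139.5 CPM in the 4 sham libraries. The groups did not overlap, and the sham mean of 170 CPM (SD 74.4, n = 4) was 24.2 times the RYGB mean of 7.03 CPM (SD 4.14, n = 3). This is a log2 fold change of -4.48 (SE 0.46, adjusted p = 8.62e-04). In the ileum Pck1 was at 51.2, 165.7, 34.8, 39.2 and 106.7 CPM after RYGB and at 302.3, 127.0, 361.7, 537.8 and 287.1 CPM after sham surgery. Only sham replicate 2 lay inside the RYGB range, and 9.34% of all ileal genes had no overlap at all. The ileal log2 fold change was -2.13 (SE 0.45, adjusted p = 0.0174). Whether the fall differed between the segments was not tested.

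The duodenum, which food no longer reaches after RYGB, did not show such a fall of Pck1. The RYGB libraries held 96.8, 72.7 and 135.4 CPM and the sham libraries 18.7, 33.2, 41.6 and 834.4 CPM. Apart from sham replicate 4, every sham value was below every RYGB value. With all libraries the log2 fold change was 0.51 (95% interval -2.07 to 3.08, adjusted p = 0.842), and without sham replicate 4 it was 1.70 (adjusted p = 0.0271), which passed both thresholds. Over the 13 alternatives it ranged from -0.10 to 1.70.

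G6pc fell in the jejunum. Its level was 141.6, 17.5 and 89.5 CPM after RYGB and 340.9, 305.0, 284.7 and 223.6 CPM after sham surgery. All RYGB libraries were below all sham libraries, with a wide spread among the RYGB libraries. Its log2 fold change was -2.21 (SE 0.56, adjusted p = 0.0361), and its means were 82.9 CPM (SD 62.3, n = 3) and 289 CPM (SD 49.1, n = 4). The call was lost without RYGB replicate 3 and without any of the 4 sham replicates, with adjusted p between 0.0580 and 0.0762, and it held without RYGB replicate 2, the lowest library, at a smaller log2 fold change of -1.33. In the duodenum the 3 RYGB libraries were at 75.2, 51.6 and 25.2 CPM and the sham libraries at 65.2, 234.4, 202.2 and 174.7 CPM. That difference did not pass (log2 fold change -1.70, 95% interval -2.82 to -0.59, adjusted p = 0.151). In the ileum the RYGB median was 141.6 CPM and the sham median 206.5 CPM, with overlapping groups (log2 fold change -0.84, adjusted p = 0.192).

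Fbp1, the bisphosphatase that opposes phosphofructokinase, rose in the ileum, the opposite direction to Pck1 there. Its level was 248.1, 143.1, 86.5, 143.9 and 141.6 CPM after RYGB and 55.8, 41.3, 47.0, 17.0 and 98.5 CPM after sham surgery. The groups overlapped at RYGB replicate 3 and sham replicate 5. With a log2 fold change of 1.66 (SE 0.39, adjusted p = 0.0262) it was called, but the adjusted p was between 0.0504 and 0.0591 without RYGB replicate 1, RYGB replicate 2, sham replicate 2 or sham replicate 3. In the duodenum Fbp1 was at 75.4, 24.7 and 24.4 CPM after RYGB and at 84.3, 190.0, 127.5 and 148.5 CPM after sham surgery. The duodenal groups did not overlap, but the gene was not called (log2 fold change -1.85, SE 0.42, adjusted p = 0.134). In the jejunum its log2 fold change was -0.79 (95% interval -1.63 to 0.04, adjusted p = 0.228). Whether the ileal rise differed from the other segments was not tested.

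Pcx, which supplies oxaloacetate, was not called in any gut segment. Its medians were 93.90 CPM after RYGB and 85.70 CPM after sham surgery in the duodenum, 75.50 and 67.60 CPM in the jejunum, and 62.20 and 62.00 CPM in the ileum. The 95% interval of its log2 fold change ran from -0.28 to 0.43 in the jejunum and from -0.55 to 0.28 in the ileum.

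Markers of the cell types of the villi are given beside these results. The 7 enterocyte markers summed to 37328 to 64356 CPM after RYGB and 70244 to 91664 CPM after sham surgery in the jejunum, where 2 of the 7 were called lower. In the duodenum the sums were 37347 to 47539 CPM against 50580 to 65143 CPM with no marker called. In the ileum they were 58124 to 80036 CPM against 36178 to 65470 CPM with 1 marker called higher and 1 lower. Of the 7 T cell markers, 5 of the 6 listed were called lower in the jejunum (sums 8.20 to 16.6 CPM against 38.5 to 61.6 CPM) and 4 of the 5 listed in the ileum (5.30 to 17.2 CPM against 23.9 to 61.0 CPM). The duodenal table listed 6 of them with no marker called, and the sums were 40.6 to 91.9 CPM after RYGB against 14.7 to 47.0 CPM. In the jejunum 6 of 12 macrophage markers were listed and 1 was called higher, with sums of 46.8 to 55.8 CPM against 22.6 to 36.5 CPM. The ileum also had 6 listed and 1 called higher (26.2 to 43.4 CPM against 19.3 to 28.1 CPM). The duodenum had 6 listed with no marker called (26.0 to 49.6 CPM against 17.2 to 29.8 CPM). The jejunal table listed 1 of 9 neutrophil markers, Ltf, which was called higher (8.8 to 25.2 CPM against 1.7 to 6.0 CPM). Ltf was also the 1 listed in the other segments, and was not called there. It was at 0.9 to 4.2 CPM against 1.8 to 3.6 CPM in the ileum. In the duodenum it was at 1.7 to 3.9 CPM against 2.1 to 13.9 CPM. No listed marker of these lists was at 0 in every library of a group, and their part in the results was not tested.

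**Figure D2:**
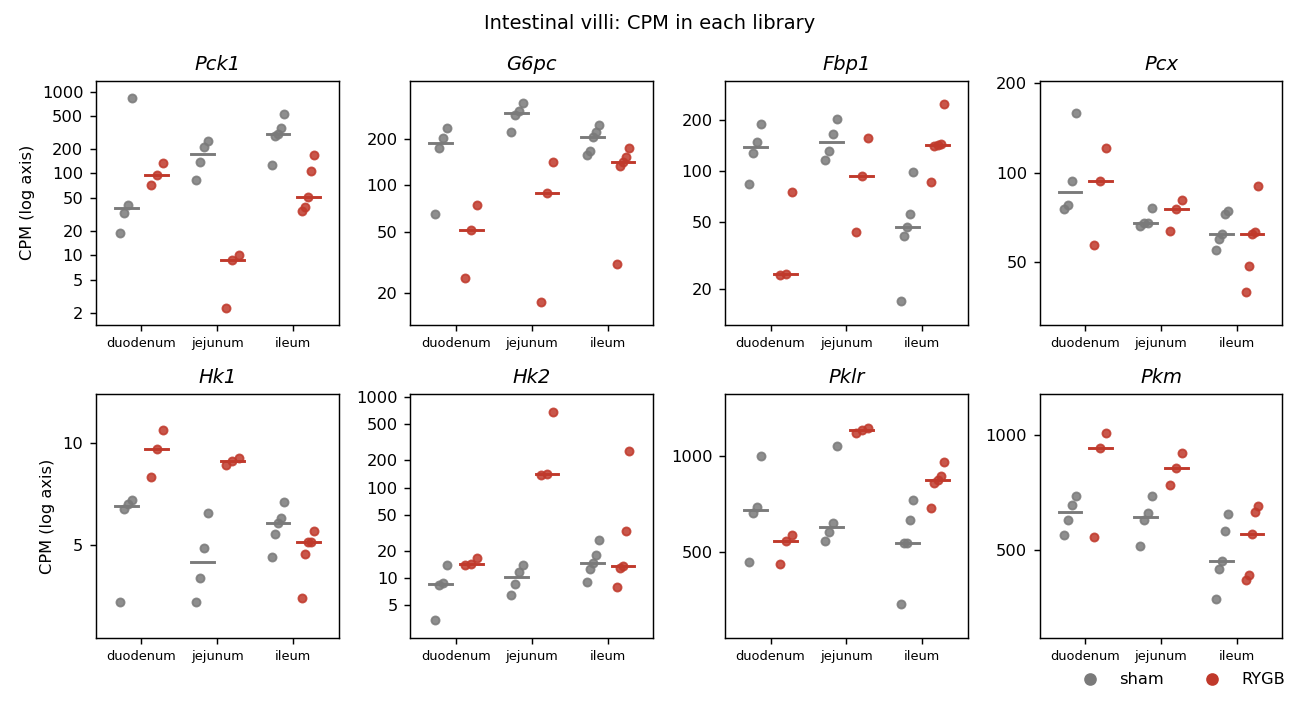
CPM (log axis) of 8 genes in every library of the duodenal, jejunal and ileal villi, sham in grey and RYGB in red, sorted within each group, with a line at the median. In the jejunum the RYGB libraries of Pck1 (2.3 to 10.0 CPM) lie below and those of Hk2 (139.4 to 690.2 CPM) above all sham libraries.

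In the liver, the gluconeogenic genes did not pass the test. Hepatic Pck1 was at 1768.2, 2896.3, 1518.7 and 2966.1 CPM after RYGB and at 2026.3, 742.0, 1200.2 and 817.8 CPM after sham surgery. Sham replicate 1 lay inside the RYGB range and the other sham libraries lay below it. Its log2 fold change was 0.99 (SE 0.33, adjusted p = 0.0818), and without sham replicate 1 it was 1.28 (adjusted p = 0.0404). Over the 15 alternatives it ranged from 0.80 to 1.28, and only that 1 was a call. G6pc was at 195.3, 444.8, 530.8 and 539.8 CPM after RYGB and at 476.1, 437.0, 692.1 and 372.0 CPM after sham surgery, with RYGB replicate 1 lowest of all. Its log2 fold change was -0.28 (95% interval -0.95 to 0.40). Fbp1 had medians of 1206 and 1151 CPM (log2 fold change -0.04, 95% interval -0.57 to 0.49) and Pcx medians of 623.5 and 534.6 CPM (0.21, -0.07 to 0.50). In these livers the differences of G6pc and Fbp1 changed sign with a library left out, and no direction is given for them.

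**Figure D3:**
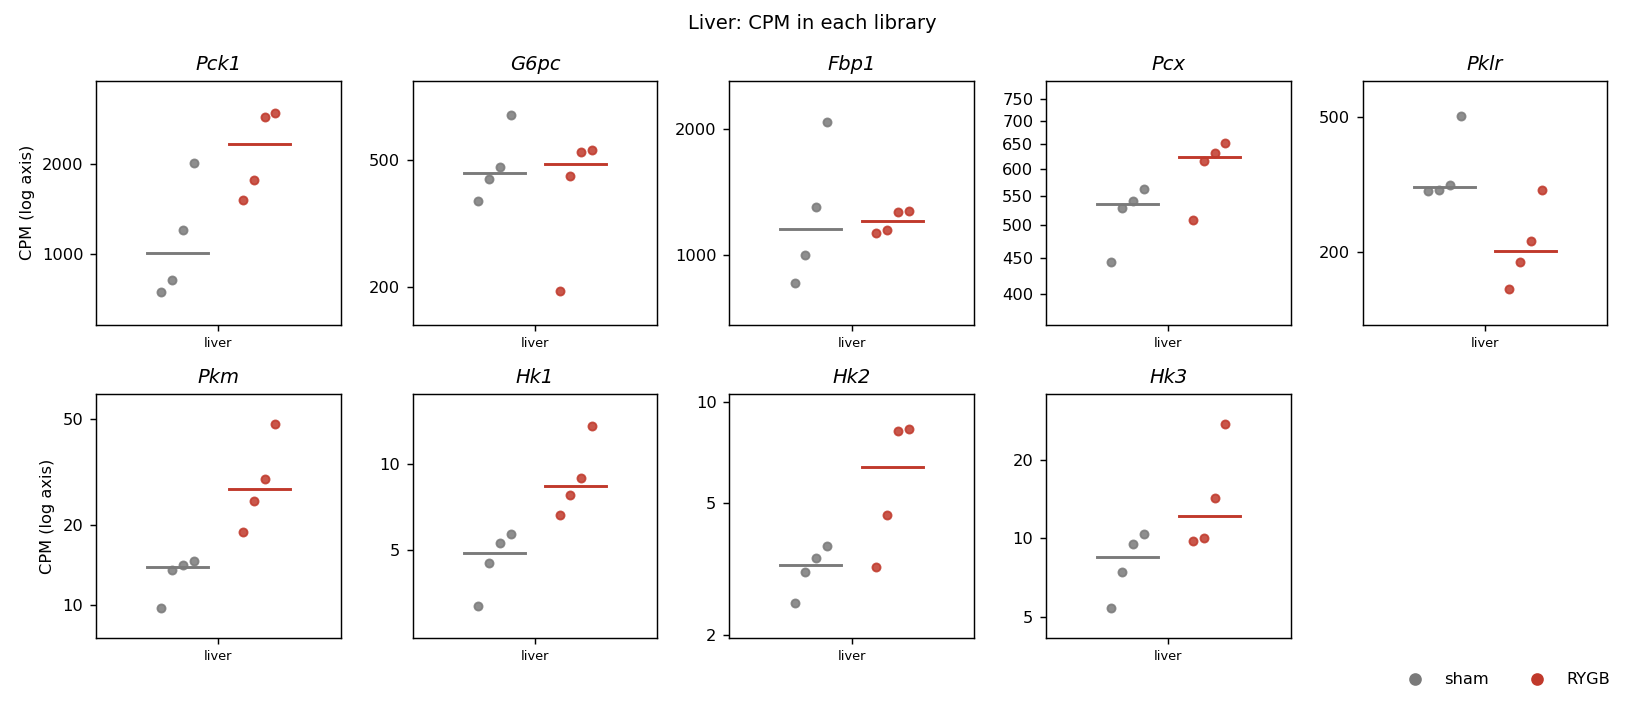
CPM (log axis) of the 9 genes in every liver library, sham in grey and RYGB in red, sorted within each group, with a line at the median. Pkm (18.8 to 47.8 CPM after RYGB, 9.8 to 14.7 CPM after sham surgery) and Hk1 are the genes whose groups do not overlap.

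In WAT, where Pck1 feeds glycerol phosphate synthesis, its level was 957.6, 1073.9, 923.4 and 914.8 CPM after RYGB and 1106.1, 828.9, 2871.4 and 2579.1 CPM after sham surgery. The RYGB libraries were close together, and the sham libraries fell into a lower and a higher pair. This gave a log2 fold change of -0.74 (95% interval -1.63 to 0.15, adjusted p = 0.157). Pcx in WAT ranged from 340.8 to 1753.2 CPM after RYGB and from 386.8 to 1293.4 CPM after sham surgery (log2 fold change 0.66, adjusted p = 0.351). In muscle Pck1 was low and uneven, from 3.3 to 16.9 CPM after RYGB and from 1.6 to 54.4 CPM after sham surgery. The highest value was that of sham replicate 3, whose 6 adipocyte markers summed to 1027 CPM, against 146.2 to 220.1 CPM in the other sham muscles and 222.4 to 432.5 CPM in the RYGB muscles. The log2 fold change of muscle Pck1 was 0.40 (adjusted p = 0.887), and 1.35 (adjusted p = 0.150) without that library. The part of adipocytes in these values was not tested. Muscle Pcx ranged from 65.4 to 98.6 CPM and from 76.9 to 111.9 CPM (log2 fold change -0.30, 95% interval -0.64 to 0.03).

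Among the hexokinases, Hk2 rose in the jejunum. Its level was 139.6, 690.2 and 139.4 CPM in the RYGB libraries and 8.6, 11.6, 14.0 and 6.4 CPM in the sham libraries. The lowest RYGB library was far above the highest sham library, and RYGB replicate 2 was far above the other RYGB libraries. The RYGB mean of 323 CPM (SD 318, n = 3) was 31.8 times the sham mean of 10.2 CPM (SD 3.34, n = 4). The difference of the mean log2(CPM + 1), which weighs the highest library less, was 4.47 (SE 0.51, adjusted p = 0.00118). It was 3.71 (adjusted p = 6.81e-04) without RYGB replicate 2, the library on another lane. After RYGB the jejunal median of 139.6 CPM lay between the sham medians of WAT and muscle, given for orientation only.

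The other gut segments gave smaller values of Hk2. In the ileum it was at 13.5, 7.9, 253.9, 33.3 and 12.8 CPM after RYGB and at 12.4, 26.0, 14.6, 17.7 and 9.0 CPM after sham surgery. Only RYGB replicate 3 reached jejunal levels, and the same library had the lowest ileal G6pc, Fbp1, Pklr, Pck1 and Pkm among the RYGB libraries. The median ratio of its genes, used for rescaling, was 0.805, against 0.926 to 1.107 in the other ileal RYGB libraries. The ileal log2 fold change was 0.78 (SE 0.73, adjusted p = 0.534) and became -0.03 without that library. In the duodenum Hk2 was at 14.0, 16.5 and 14.1 CPM after RYGB and at 13.8, 8.4, 3.4 and 8.8 CPM after sham surgery. The duodenal groups did not overlap but the gene was not called (log2 fold change 0.85, SE 0.36, adjusted p = 0.252). Non-overlapping groups were found for 15.6% of all duodenal genes.

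Hk1 rose in the jejunum and in the liver, at low levels. In the jejunum it was at 8.6, 8.8 and 9.0 CPM after RYGB and at 4.0, 6.2, 4.9 and 3.4 CPM after sham surgery. The RYGB libraries were almost equal and above every sham library. The log2 fold change was 0.83 (SE 0.22, adjusted p = 0.0435). The call was lost under the lane term and without any of the 3 RYGB replicates or of sham replicates 1, 3 and 4, with adjusted p between 0.0715 and 0.128. In the duodenum Hk1 was at 10.9, 7.9 and 9.6 CPM against 6.8, 6.6, 3.4 and 6.4 CPM, again without overlap, and was not called (log2 fold change 0.65, SE 0.23, adjusted p = 0.203). In the ileum its medians were 5.100 and 5.800 CPM (log2 fold change -0.22, 95% interval -0.54 to 0.11).

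In the liver Hk1 was at 6.6, 13.5, 8.9 and 7.8 CPM after RYGB and at 3.2, 4.5, 5.7 and 5.3 CPM after sham surgery. The groups did not overlap, as for 16.4% of all liver genes. Hepatic Hk1 had a log2 fold change of 0.82 (SE 0.21, adjusted p = 0.0396). Rescaled libraries gave an adjusted p of 0.0550, and leaving out RYGB replicate 2, RYGB replicate 3, sham replicate 1, sham replicate 2 or sham replicate 4 gave between 0.0687 and 0.105. Hepatic Hk3 was at 9.8, 27.5, 14.3 and 10.0 CPM against 5.4, 9.5, 10.4 and 7.4 CPM, and Hk2 at 4.6, 8.2, 8.3 and 3.2 CPM against 2.5, 3.4, 3.1 and 3.7 CPM. Neither passed, with log2 fold changes of 0.75 (SE 0.30, adjusted p = 0.133) and 0.69 (SE 0.25, adjusted p = 0.103). With lane as a covariate Hk3 was called (0.94, adjusted p = 0.0421), and without RYGB replicate 4 Hk2 was called (0.91, adjusted p = 0.0280). Over the alternatives Hk3 ranged from 0.45 to 0.94 and Hk2 from 0.53 to 0.91, and 13 alternatives of each gave no call.

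Hk3 fell in WAT. Its level was 26.8, 29.3, 20.5 and 16.5 CPM after RYGB and 39.9, 41.3, 43.9 and 65.3 CPM after sham surgery. All RYGB libraries lay below all sham libraries. Groups without overlap were found for 41.2% of all genes in WAT. Hk3 had a log2 fold change of -1.01 (SE 0.21, adjusted p = 0.00914), and the call held in all 15 alternatives. Of 12 macrophage markers, 11 were listed in WAT and 5 were called lower, with sums of 1818 to 2776 CPM after RYGB and 2697 to 4708 CPM after sham surgery. Of 9 neutrophil markers, 5 were listed there and 1 was called higher, with sums of 31.3 to 286 CPM against 19.4 to 35.8 CPM. RYGB replicate 4 held the 286 CPM, and the other RYGB libraries 31.3 to 46.9 CPM. Ngp, Mmp8, Retnlg and Camp were not listed. All 3 endothelial markers were called lower (840 to 1178 CPM against 1443 to 2516 CPM), as were 2 of the 3 listed of 4 keratinocyte markers (2.20 to 2.60 CPM against 3.60 to 144 CPM). The same WAT libraries held B cell markers, 8 of 8 called higher, at 879 to 2292 CPM after RYGB against 7.40 to 18.3 CPM, and T cell markers, 7 of 7 called higher, at 333 to 1256 CPM against 21 CPM or less. The 6 adipocyte markers summed to 7044 to 13328 CPM against 14792 to 21733 CPM, with 1 called lower. No listed marker was at 0 in every library of a group, Clec4f was not listed, and the part of these cells in the fall of Hk3 was not tested.

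The other hexokinases of WAT and muscle did not pass. In WAT, Hk2 was at 158.6, 155.3, 90.9 and 47.7 CPM after RYGB and at 138.1, 80.8, 52.5 and 75.5 CPM after sham surgery, which overlapped throughout. Its log2 fold change was 0.32 (95% interval -0.61 to 1.25). Hk1 had nearly the same median in both groups, 78.40 and 82.50 CPM (log2 fold change 0.02, 95% interval -0.28 to 0.31). In muscle, Hk2 was at 258.6 to 385.3 CPM after RYGB and 243.6 to 339.2 CPM after sham surgery (log2 fold change 0.16, 95% interval -0.17 to 0.49). Muscle Hk1 was at 12.8, 12.4, 13.0 and 8.2 CPM against 8.4, 8.8, 11.3 and 8.2 CPM (log2 fold change 0.30, 95% interval -0.06 to 0.65).

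**Figure D4:**
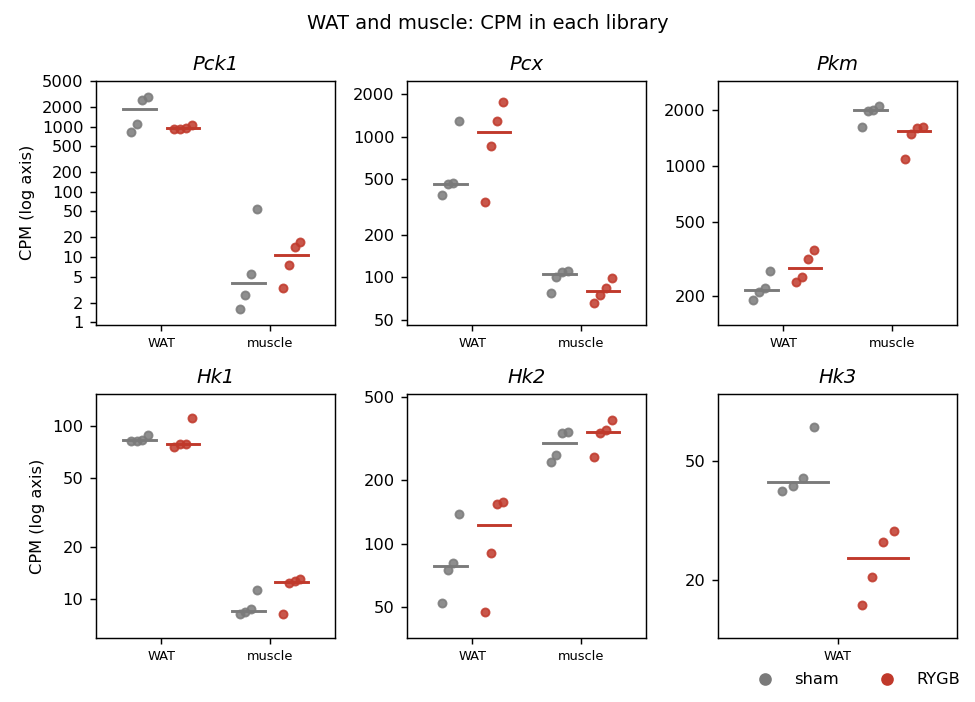
CPM (log axis) of the members listed in WAT and muscle, in every library, sham in grey and RYGB in red, sorted within each group, with a line at the median. Hk3 in WAT (16.5 to 29.3 CPM after RYGB, 39.9 to 65.3 CPM after sham surgery) is the panel without overlap.

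Of the pyruvate kinases, Pkm, the form of most tissues other than liver, rose in the liver. Its level was 24.7, 47.8, 29.9 and 18.8 CPM after RYGB and 9.8, 13.6, 14.7 and 14.2 CPM after sham surgery. The lowest RYGB library was above the highest sham library. Pkm had a log2 fold change of 1.09 (SE 0.24, adjusted p = 0.0234), and its means were 30.3 CPM (SD 12.5, n = 4) and 13.1 CPM (SD 2.23, n = 4). The adjusted p was between 0.0525 and 0.0704 without RYGB replicate 3, sham replicate 1, sham replicate 2 or sham replicate 4. Pklr, the main hepatic form, was at 304.0, 154.7, 186.7 and 215.0 CPM after RYGB and at 303.7, 503.2, 303.3 and 315.8 CPM after sham surgery. RYGB replicate 1 stood at the sham level and the other RYGB libraries below it. The log2 fold change of Pklr was -0.74 (SE 0.22, adjusted p = 0.0616), which did not pass, and without RYGB replicate 1 it was -0.92 (adjusted p = 0.0190). With lane as a covariate it was -0.78 (adjusted p = 0.00990), also a call. Without sham replicate 2, the highest library, it was -0.56 (adjusted p = 0.131). Over the 15 alternatives it ranged from -0.92 to -0.56, and 2 of them were calls.

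Markers of other cell types also differed between the RYGB and sham livers. All 12 macrophage markers were listed and 7 were called higher, with sums of 833.9, 1875, 938.1 and 853.0 CPM in the RYGB livers and 346.8, 624.0, 577.1 and 612.5 CPM in the sham livers. RYGB replicate 2 had the highest macrophage sum and also the highest Pkm, Hk1 and Hk3. Of 9 neutrophil markers, 7 were listed and 4 called higher, with sums of 41.5 to 659 CPM against 12.3 to 20.8 CPM, while Mmp8 and Camp were not listed. Of the 4 fibroblast markers 2 were called higher, with sums of 343 to 671 CPM against 241 to 325 CPM. The 7 hepatocyte markers summed to 97045 to 128016 CPM against 90904 to 110541 CPM, with 1 called lower. No listed marker was at 0 in every library of a group. Without RYGB replicate 2 the log2 fold change was 0.85 for Pkm (adjusted p = 0.0272), 0.64 for Hk1 (adjusted p = 0.0751) and 0.45 for Hk3 (adjusted p = 0.272). The part of these cells in the results was not tested.

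Pklr was higher after RYGB in the jejunum and ileum by its values, without passing the test. In the jejunum it was at 1179.5, 1211.3 and 1224.9 CPM against 579.4, 1074.5, 617.0 and 542.3 CPM, without overlap. The log2 fold change was 0.83 (SE 0.24, adjusted p = 0.0567), and without sham replicate 2 it was 1.06 (adjusted p = 0.00670). Over the 14 alternatives it ranged from 0.73 to 1.06, and only that 1 was a call. In the ileum it was at 823.6, 866.1, 686.1, 960.6 and 840.9 CPM against 533.8, 534.0, 729.5, 343.8 and 629.5 CPM. RYGB replicate 3 and sham replicate 3 overlapped, and leaving out either gave an adjusted p of 0.0480 or 0.0494, against 0.0547 with all libraries (log2 fold change 0.63, SE 0.18). Rescaled libraries gave 0.73 (adjusted p = 0.0191). Over the 16 alternatives it ranged from 0.46 to 0.74, and 3 of them were calls. In the duodenum the RYGB range of 458.9 to 567.1 CPM overlapped the lower end of the sham range of 463.6 to 1002.0 CPM (log2 fold change -0.39, 95% interval -0.97 to 0.19).

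Pkm in the gut was not called. In the jejunum it was at 737.8, 818.7 and 898.4 CPM after RYGB and at 597.3, 624.6, 512.7 and 692.5 CPM after sham surgery, without overlap (log2 fold change 0.43, SE 0.17, adjusted p = 0.151). Together 6 of the 8 jejunal members had groups that did not overlap, in a tissue in which 22.2% of all genes did. In the duodenum and ileum the log2 fold changes of Pkm were 0.36 and 0.12. In muscle, where Pkm had its highest level, it was at 1617.1, 1487.5, 1087.7 and 1591.2 CPM after RYGB and at 2104.5, 2000.0, 1609.7 and 1971.3 CPM after sham surgery. Only sham replicate 3 lay within the RYGB range, and 7.40% of all muscle genes had no overlap. Muscle Pkm had a log2 fold change of -0.42 (95% interval -0.75 to -0.09) with an unadjusted p of 0.0187 in limma, the only muscle member under 0.05, and an adjusted p of 0.242. The 6 fibre markers summed to 105081 to 139974 CPM in RYGB muscle and 144201 to 177704 CPM in sham muscle, with no marker called. Their part in the Pkm values was not tested. In WAT Pkm was at 238.1 to 353.7 CPM against 189.7 to 272.8 CPM (log2 fold change 0.37, adjusted p = 0.104).

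Per kb of exon, the make-up of each enzyme family could be compared within a library, as a description without a test. Pkm made up 9.10% (SD 5.42, n = 4) of the pyruvate kinase level in RYGB livers and 2.41% (SD 0.628, n = 4) in sham livers, so Pklr was the main form in both. In the ileum the share of Pklr was 70.9% (SD 2.71, n = 5) after RYGB and 63.0% (SD 5.21, n = 5) after sham surgery. In the jejunum it was 69.5% (67.8 to 71.2%) and 63.1% (54.8 to 72.7%). In the duodenum it was 50.3% (41.2 to 60.8%) and 62.7% (52.2 to 69.2%). The groups overlapped in each gut segment.

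In the jejunum Hk2 made up 96.9% (SD 1.93, n = 3) of the level of the 2 listed hexokinases after RYGB and 75.4% (SD 3.53, n = 4) after sham surgery. The lowest RYGB share was 95.7% and the highest sham share 80.3%. In WAT the share of Hk3 was 17.9% (SD 0.715, n = 4) after RYGB and 35.0% (SD 8.09, n = 4) after sham surgery. That of Hk2 was 51.2% (31.3 to 62.3%) and 38.1% (28.9 to 53.2%), with overlapping groups.

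**Figure D5:**
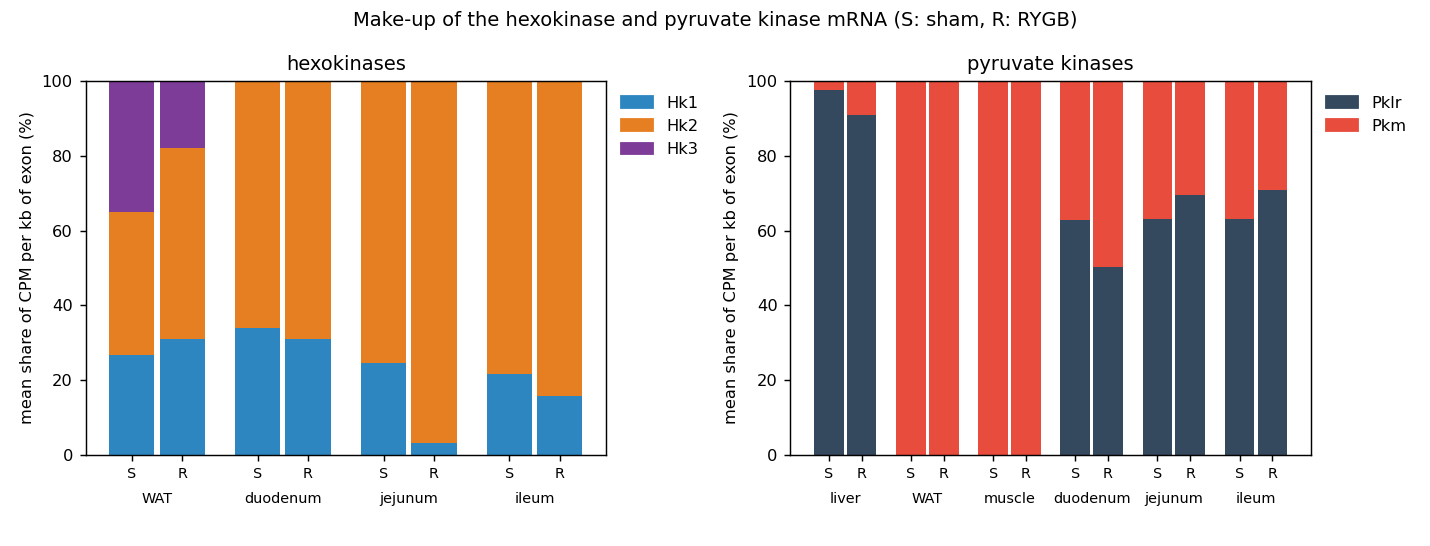
Mean share (%) of each gene in the CPM per kb of exon of the hexokinases (left, for WAT and the gut segments) and of the pyruvate kinases (right), by tissue, for sham (S) and RYGB (R) libraries. Hk2 takes 75.4% of the jejunal bar in sham and 96.9% in RYGB, and Pkm 2.41% and 9.10% of the hepatic bar.

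The other genes of the pathway were followed through 65 genes in 5 lists. Of 17 other glycolytic enzymes, 14 were tested in the jejunum and 3 were called higher and none lower, with a median log2 fold change of 0.69, where 4.62% of all genes were called higher. These were Aldoa (aldolase, 1.31, adjusted p = 0.0170), Ldha (lactate dehydrogenase, 1.22, adjusted p = 0.0119) and Pfkp (platelet phosphofructokinase, 1.10, adjusted p = 0.00651). In the ileum 5 of 14 were called higher and none lower, with a median of 0.55, where 1.64% of all genes were called higher. Aldoa (0.97, adjusted p = 0.0145), Gpi1 (glucose phosphate isomerase, 0.96, adjusted p = 0.0277) and Ldha (0.86, adjusted p = 0.0125) had the largest changes. In the liver 2 of 16 were called higher, Pfkp (0.88, adjusted p = 0.0221) and Aldoa (0.88, adjusted p = 0.0202), against 5.79% of all genes, and the median was 0.13, the same as that of all genes. In WAT 1 of 14 was called, Eno3 (muscle enolase, 0.84, adjusted p = 0.0174), in a tissue in which 14.9% of all genes were called higher.

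Of 12 other genes of gluconeogenesis and glucose output, 1 was called in the jejunum, lower, where 5.13% of all genes were called lower. A single call among 12 genes does not set the list apart from all genes there. Slc37a4, the carrier that brings glucose 6-phosphate to G6pc, was at 85.5 to 100.8 CPM after RYGB and 158.0 to 225.5 CPM after sham surgery (means of 91.6 and 185 CPM, adjusted p = 0.00669). In the liver 2 of 11 were called higher, both at low levels, where 5.79% of all genes were called higher. Pck2, the mitochondrial form of Pck1, was at 7.3 to 16.8 CPM against 3.7 to 7.3 CPM (1.03, adjusted p = 0.0261). Pgm1, a phosphoglucomutase, was at 10.7 to 14.7 CPM against 5.7 to 9.1 CPM (0.77, adjusted p = 0.0166). The median log2 fold change of the 11 was 0.05, against 0.13 for all genes. In WAT, ileum, duodenum and muscle limma called none of the 12, with 1, 4, 1 and 7 at an unadjusted p under 0.05. Of all tested genes, 6685 of 13379 in WAT, 2842 of 10735 in ileum, 2040 of 10850 in duodenum and 1746 of 11966 in muscle were under it. Muscle Got1 (0.92) and Got2 (0.64), aminotransferases that link oxaloacetate with aspartate, had the smallest unadjusted p there, 6.51e-04 and 5.51e-04.

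Of 13 switch enzymes around fructose bisphosphate and pyruvate, 11 were tested in the jejunum. Pdk4, a kinase that shuts pyruvate dehydrogenase in fasting, was at 1.4 to 6.0 CPM after RYGB and 50.6 to 126.4 CPM after sham surgery (log2 fold change -4.52, adjusted p = 4.14e-04). Pdk2 fell as well (-1.27, adjusted p = 0.00203), while Pdk1 rose (1.03, adjusted p = 0.0360). In the ileum Pdp2, a phosphatase that reopens the same complex, and Pdk2 fell (-1.09 and -0.69) and Pdp1 rose from low levels (0.93, adjusted p = 0.0464). In the duodenum limma called none of 11, with 2 at an unadjusted p under 0.05, as were 2040 of all 10850 genes there. Duodenal Pdk4 had the smallest unadjusted p in limma (1.71e-04), at 38.7 to 61.6 CPM against 114.6 to 235.3 CPM. In the liver Pdk1 fell (-0.78, adjusted p = 0.0170), and in WAT Pdk1 (0.86) and Pdk3 (0.67) rose. In muscle limma called none of 11, with 6 at an unadjusted p under 0.05, as were 1746 of all 11966 genes there.

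Among 6 glucose carriers, Slc2a1, the widespread basal carrier GLUT1, rose in the jejunum from 3.7 to 5.1 CPM in sham libraries to 12.2 to 24.7 CPM (log2 fold change 1.81, adjusted p = 0.00285), and Slc2a3 rose in WAT (1.68, adjusted p = 0.00335). Of 17 regulators of these genes, Srebf1, which drives lipogenic genes in the fed state, fell in the liver (-1.63, adjusted p = 0.00771) and in the jejunum (-2.10, adjusted p = 0.00203). In the jejunum Klf15, a factor of fasting gluconeogenesis, also fell (-1.84, adjusted p = 0.00184), from 2.9 to 3.9 CPM in sham libraries to at most 0.7 CPM, and Hif1a, the hypoxia factor, rose (1.51, adjusted p = 0.0437). In the liver Myc (1.30, adjusted p = 0.0220) and Ppargc1a, a coactivator of gluconeogenic genes (0.72, adjusted p = 0.0195), rose and Mlxipl, the glucose-sensing factor ChREBP, fell (-0.60, adjusted p = 0.0485). In the ileum Nr3c1, the glucocorticoid receptor, fell (-0.73, adjusted p = 0.0176), and in WAT Creb1 rose (0.69) while Gcgr (-1.14) and Irs1 (-0.64) fell. Over the 5 lists, 6 of 55 genes were called higher and 5 lower in the jejunum, 6 and 3 of 55 in the ileum, 6 and 3 of 61 in the liver and 5 and 2 of 57 in WAT. All genes called higher and lower were 4.62% and 5.13% in the jejunum, 1.64% and 4.42% in the ileum, 5.79% and 1.29% in the liver and 14.9% and 9.23% in WAT, where the lists lay below the background. In muscle and duodenum limma called 0 of 55, with 17 and 8 at an unadjusted p under 0.05, as were 1746 of all 11966 genes in muscle and 2040 of all 10850 in duodenum.

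The genes whose level followed each member most closely across libraries were found by Pearson's r of log2(CPM + 1). The libraries of a tissue share most of their pattern, so r mostly reflects differences between the separately normalized tissues. For Pck1, over 48 libraries, these were Rai14 (r = 0.919), Ptms (0.888) and Atg14 (0.886). For Hk2 they were Srf (0.874), Stk40 (0.872) and Pfkfb3 (0.871), the last of which makes the activator of phosphofructokinase. Hk1 was closest to Sntb2 (0.976), Cers5 (0.964) and Epb4.1l2 (0.963), Pkm to Calm3 (0.961), St3gal6 (0.955) and 1110007C09Rik (0.954), and Pcx to Cpq (0.953), Agfg2 (0.949) and Arsb (0.946). Over the 32 libraries of the 4 tissues that list them, the closest genes included Gbe1 (0.936) and Hacl1 (0.920) for Fbp1 and Sec22b (0.886) and C78339 (0.876) for Pklr, and G6pc was closest to Fgfrl1 (0.822), Homez (0.817) and Setmar (0.807). Hk3, over 16 libraries of liver and WAT, was closest to Slc11a1 (0.979), Fcgr3 (0.977) and Lgmn (0.976).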

How the data were processed

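RNA was extracted with an RNeasy kit and sequenced as stranded mRNA libraries (TruSeq). Intestinal villi were scraped off after ice-cold EDTA. The authors deposited 1 table per tissue with 1 column per library. The values were taken as CPM deposited by the authors, rounded to 0.1. No source used here states the unit, which was inferred from the column sums. Column sums ran from 925122 to 998777 once repeated lines were dropped. Counting with HTSeq and the build GRCm38 are named in the submitters' processing notes. The aligner and annotation are not given in the sources used here. Lines that repeat a gene were counted once (between 1 and 408 per table), and 12 incomplete liver lines were left out. Total counts and hence the depth are unknown, so no counting interval was given and no count test was run.

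For each tissue the RYGB and sham libraries were fitted with limma 3.58.1 (R 4.3.3) on log2(CPM + 1), empirical Bayes with a trend. Genes whose mean reached 1 CPM entered, with Benjamini-Hochberg adjustment over all of them. A call needed an adjusted p under 0.05 and a fold change of at least 1.5. The tables were normalized separately, so tissues were not tested against each other. The labels do not say that libraries of a group came from separate animals, so p-values measure the spread between these libraries. Exon lengths came from GENCODE M21 and promoters from RefSeq (250 bases). The fit was tested on simulated data. A few genes are not reported here. Tables were read with pandas 2.3.3 and figures drawn with matplotlib 3.10.9. The members and lists were chosen with earlier results of these data known. All members were named in every tissue, and per list and tissue at most the 3 called genes with the largest change, or up to 2 with the smallest p where none was called. Mlxipl in liver, with a smaller change than the 3 called regulators named beside it, was named beyond this rule. The alternatives were another pseudocount (0.1 CPM), no minimum or a minimum of 10 CPM, rescaled libraries, lane, a replicate block, the p threshold alone, no trend, and each library left out.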

Additional observations from a re-analysis of the deposited data

Results flagged for a closer look

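In 6 of the 72 groups of 4 or 5 libraries that were examined, 1 library stood apart from the others, where chance alone gives about 3.60. The measure is the gap to the nearest library divided by the whole range of the group, on log2(CPM + 1). Pklr in sham liver replicate 2 was the highest of its group (503.2 CPM, the others 303.3 to 315.8 CPM), with a gap of 0.920 of the range. Hk1 in duodenal sham replicate 3 was the lowest (3.4 CPM, the others 6.4 to 6.8 CPM, 0.908). Hk1 was also lowest in muscle RYGB replicate 4 (8.2 CPM, the others 12.4 to 13.0 CPM, 0.896) and highest in WAT RYGB replicate 4 (111.3 CPM, the others 75.0 to 78.5 CPM, 0.885). Pcx was highest in WAT sham replicate 1 (1293.4 CPM, the others 386.8 to 464.4 CPM, 0.849). G6pc was lowest in ileal RYGB replicate 3 (31.2 CPM, the others 134.5 to 175.8 CPM, 0.844). None of these 6 gene and tissue pairs was called with all libraries.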

How the results depend on the processing

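Of 639 recomputed log2 fold changes over the 44 gene and tissue pairs, 588 kept their direction and their side of the thresholds. Hk3 in WAT, Pck1 in jejunum and Hk2 in jejunum kept their call in all alternatives, and the other 6 called pairs lost it in at least 1. The number of called members was 2 in liver, and it was 1 with a mean of at least 10 CPM, 1 with rescaled libraries and 4 with lane as a covariate. Leaving out single libraries gave 0 to 3 in liver (0 without RYGB replicate 3, sham replicate 2 or sham replicate 4, and 1 without RYGB replicate 2 or sham replicate 1), 0 to 1 in duodenum (1 without sham replicate 4), 2 to 4 in jejunum (2 without RYGB replicate 3, sham replicate 1, sham replicate 3 or sham replicate 4) and 1 to 3 in ileum (1 without RYGB replicate 1, RYGB replicate 2 or sham replicate 2). It stayed at 1 in WAT and 0 in muscle.

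The signs that reversed all belonged to differences that were not called. Under the lane term, Fbp1 in liver had a log2 fold change of 0.05 and Hk2 in WAT -0.11, and with rescaled libraries Hk1 in WAT had -0.10. With 1 library left out, the log2 fold change ranged from -0.21 to 0.21 for Fbp1 in liver (positive without sham replicate 3), from -0.42 to 0.06 for G6pc in liver (positive without RYGB replicate 1), from -0.11 to 0.07 for Hk1 in WAT (negative without RYGB replicate 4), from -0.12 to 1.35 for Pck1 in muscle and from -0.10 to 1.70 for Pck1 in duodenum (both negative without sham replicate 1), from -0.40 to 0.14 for Pcx in duodenum (0.14 without RYGB replicate 1 and 0.08 without sham replicate 1) and from -0.03 to 1.18 for Hk2 in ileum (negative without RYGB replicate 3). The cause was not tested. Over all genes, rescaling changed the calls from 684 higher and 152 lower to 437 and 235 in liver, from 1996 and 1235 to 1642 and 1668 in WAT, and from 176 and 474 to 329 and 372 in ileum.

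With the replicate number as a block, 1 member was called in duodenum (0 without it), 1 in ileum (2 without it), 3 in liver (2 without it) and 3 in jejunum (4 without it), with WAT at 1 and muscle at 0 as before. Hepatic Hk3 gained a call (0.75, adjusted p = 0.0323) and jejunal Hk1 lost its call (0.72, adjusted p = 0.157). Over all muscle genes the block called 184. In duodenum this block leaves sham replicate 4 without a partner, and Pck1 had the value it has without that library, 1.70. In ileum Pck1 kept its log2 fold change of -2.13 at an adjusted p of 0.0558. The labels give no shared source to equal numbers, and correlations between equal numbers ranged from -0.281 to 0.389, with no tissue above 0.1 throughout. A lane fit was not run in duodenum, with a single lane, or in ileum, with no shared lane.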
